A study of Mus musculus with 20 samples.

Results

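Rpa1 encodes the large subunit of replication protein A, the complex that coats single-stranded DNA during replication and repair. Its transcript is described here through the A-to-I editing sites in its 3′ UTR. Sites were chosen by coverage alone: every listed Rpa1 site with at least 50 reads over it in both libraries of at least 1 group. This took in 52 of the 53 listed Rpa1 sites, out of 9065 sites in the whole series that met the same coverage rule. All 52 lie in the 3′ UTR on the minus strand of mm9 chromosome 11, between positions 75114038 and 75114595. The listed site left out, 75152435, is annotated as intronic and had 0 reads in every library. The members nearest the threshold still had 81 reads in the lower library of their best-covered group. Positions are as the files give them, which do not state a 0-based or 1-based count. A higher position is further upstream in the transcript.

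Editing was read in mouse embryonic fibroblasts, connective tissue cells grown from embryos, in 20 libraries from 5 lines: ADAR1_NULL, P150_KO, ADAR2_NULL, STAT2_NULL and ADAR1_WT. Each line was sampled after interferon and untreated, with 2 libraries per line and treatment. The ADAR1_NULL label names a line without ADAR1, P150_KO a line in which the p150 form of ADAR1 was knocked out, ADAR2_NULL a line without ADAR2 and STAT2_NULL a line without STAT2; ADAR1_WT is called wild type below. The labels give no strain, no other allele, no age, and no type, dose or duration of interferon. Each genotype is 1 line, so its difference from wild type cannot be told apart from other differences between lines, and no label says that the 2 libraries of a group are separate cultures, so the tests weigh differences against a spread that may be technical. The design text speaks of 6 lines, and the sixth was not analysed here.

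A-to-I editing is carried out by ADAR enzymes, which bind double-stranded RNA and deaminate adenosines; inosine is read as guanosine in cDNA. Inverted copies of repeats in a 3′ UTR can fold back on each other into such a duplex, and many adenosines along it can then be edited, each to a different extent. ADAR1 is made in a constitutive form, p110, which is mainly nuclear, and a longer form, p150, which is transcribed from an interferon-inducible promoter and is found mainly in the cytoplasm. ADAR2 is a second, mainly nuclear enzyme. STAT2 is part of the transcription factor through which type I interferon switches on its target genes. Transcript amount is not measured by these amplicons, so the loss of the targeted genes and the amount of Rpa1 mRNA were not checked. Of the fibroblast markers looked for, 0 of 8 had a covered site, against 0 of 4 macrophage markers and 1 of 4 epithelial markers (Cdh1), so cell identity cannot be read from these amplicons.

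The 52 sites fall into an upstream and a downstream stretch. The site furthest upstream, 75114595, stands alone. It is followed by 22 sites within 70 bases, from 75114543 to 75114474, and after a gap of 328 bases by 29 sites within 109 bases, from 75114146 to 75114038. The upstream 23 sites had 70 to 335 reads over them in each of the 20 libraries. The downstream 29 sites had 6 to 191 reads, and reached 50 reads in both libraries of 6 of the 10 groups. The groups in which they did not were the interferon-treated p150-knockout cells, the untreated ADAR1-null cells and both wild-type groups, so at 50 reads no downstream site could be tested against wild type. Total coverage over all sites was 4389326 to 5559674 reads per library.

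Coverage had a regular structure. At 13 sites in the middle of the downstream stretch, from 75114104 to 75114047, the median read count equalled the sum of the counts over the 12 sites before them and the 4 sites after them, within 1 read in 20 of 20 libraries. The 3 sites from 75114543 to 75114534 in the upstream stretch showed the same doubling. Edited counts above 0 were even numbers in 126 of 161 cases (78.3%) at these 16 sites and in 121 of 362 cases (33.4%) at the other 36. A level, which is a ratio, does not change if both counts are doubled, but the read number behind it is then overstated. Halving the counts at the doubled sites changed no count of called sites by more than 1.5 times in any of the 18 comparisons.

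**Figure D1:**
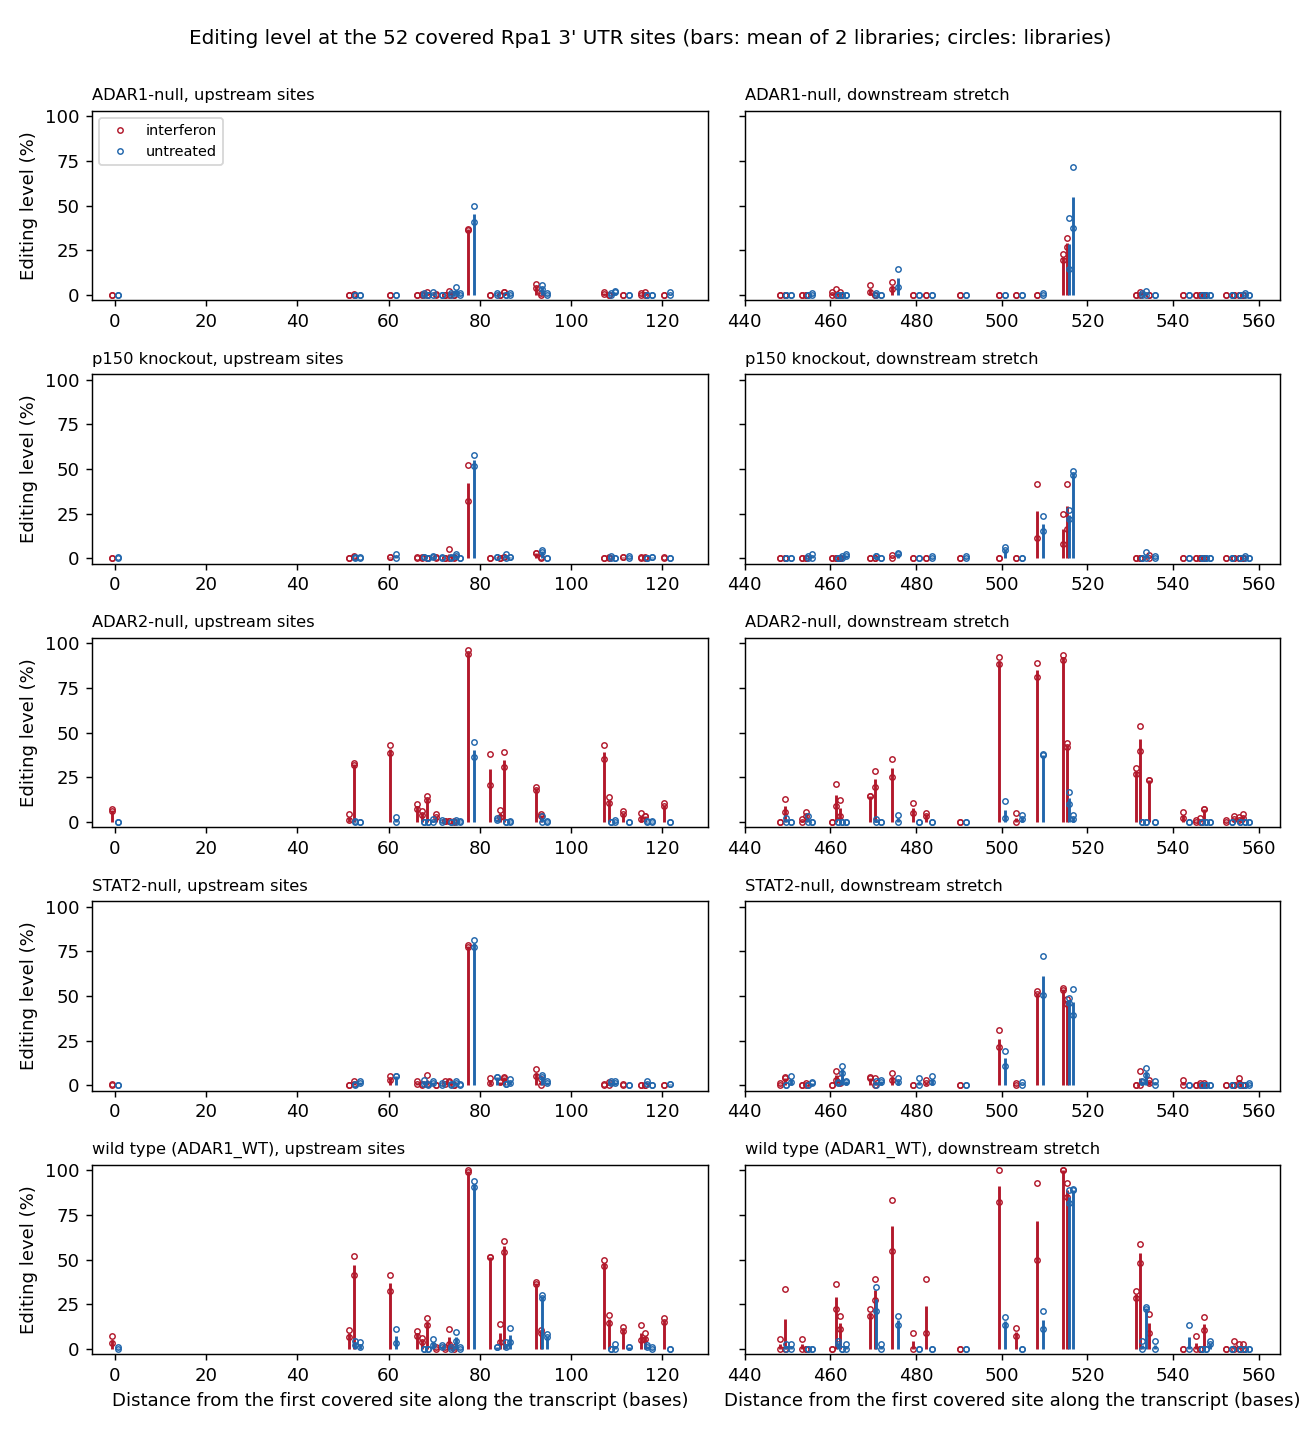
Editing level (percent of reads edited, vertical axis) at the 52 covered Rpa1 sites against distance along the transcript from the first covered site (bases), with the upstream sites on the left and the downstream stretch on the right. Each row is a line; bars are means of 2 libraries and circles the libraries, with interferon in red and untreated in blue. Many bars reach 10% only in interferon-treated wild-type (26 of 52) and ADAR2-null cells (20 of 52). Untreated wild-type cells have 9 such sites and the other groups 3 to 5.

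Summarised over the 23 upstream sites, Rpa1 was most edited in interferon-treated wild-type and ADAR2-null cells. Interferon-treated ADAR1-null libraries had mean levels of 2.31% and 1.99%, against 2.80% and 2.39% in the untreated ones. The p150 knockout had 1.76% and 2.88% with interferon, against 3.25% and 2.95% untreated. In both lines the interferon-treated mean was the lower one.

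In ADAR2-null cells the mean levels were 15.6% and 16.9% with interferon, against 1.70% and 2.61% untreated. STAT2-null cells had 4.71% and 5.12% with interferon, against 5.07% and 5.02% untreated. Wild-type cells had 22.6% and 21.5% with interferon, against 7.01% and 7.86% untreated. The interferon libraries thus lay above the untreated ones without overlap in ADAR2-null and wild-type cells, and overlapped them in STAT2-null cells.

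The difference of means, interferon minus untreated, was 14.1 percentage points in ADAR2-null cells, a ratio of 7.55, and 14.6 points in wild-type cells, a ratio of 2.97. It was -0.444 points in ADAR1-null, -0.779 points in p150-knockout and -0.131 points in STAT2-null cells. In the order of the group means, interferon-treated wild type (22.1% ± 0.758, SD, n = 2) came before interferon-treated ADAR2-null (16.3% ± 0.927), untreated wild type (7.44% ± 0.603) and untreated STAT2-null cells (5.05% ± 0.0396). Interferon-treated STAT2-null cells (4.91% ± 0.294) overlapped the last of these. Untreated p150-knockout cells followed (3.10% ± 0.216). The last 4 groups overlapped their neighbours in the order: untreated ADAR1-null (2.59% ± 0.287), interferon-treated p150-knockout (2.32% ± 0.792), untreated ADAR2-null (2.16% ± 0.647) and interferon-treated ADAR1-null cells (2.15% ± 0.223). These means are a description with no test, since the coverage rule for the sites was set with earlier results of these data known.

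**Figure D2:**
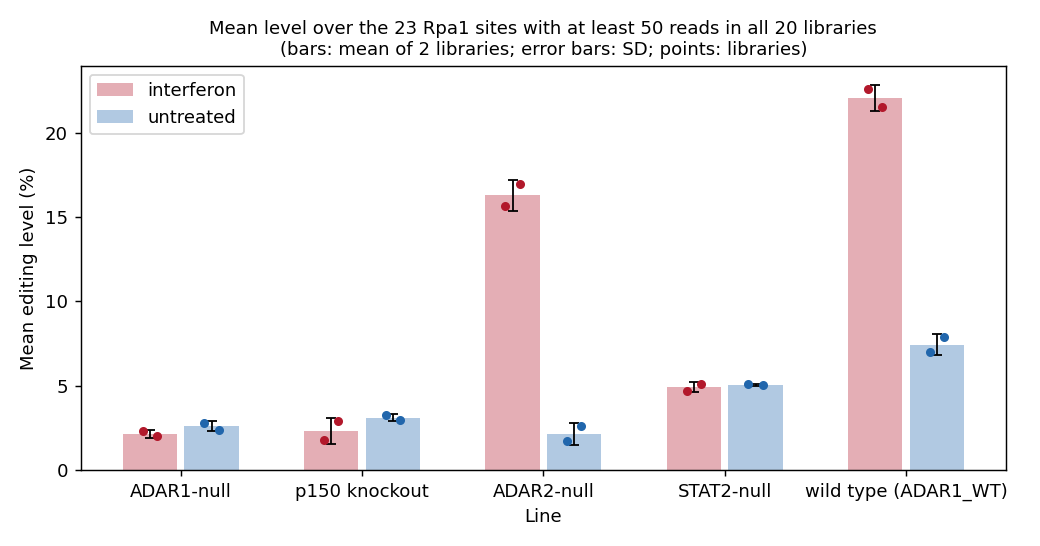
Mean editing level over the 23 Rpa1 sites with at least 50 reads in all 20 libraries (percent), by line and treatment. Bars are means of 2 libraries, error bars the SD and points the libraries; interferon-treated wild-type (22.1%) and ADAR2-null cells (16.3%) stand above all other groups.

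The downstream stretch ranked the lines in a like way, at a lower depth. Its 29 sites averaged 19.0% ± 0.518 with interferon and 2.39% ± 0.258 untreated in ADAR2-null cells (SD, n = 2), and 24.1% ± 3.64 with interferon and 10.2% ± 0.588 untreated in wild-type cells. STAT2-null cells averaged 7.58% ± 0.405 with interferon and 7.37% ± 0.147 untreated. The p150 knockout averaged 2.56% ± 0.366 and 3.76% ± 0.046, and ADAR1-null cells 2.19% ± 0.524 and 3.32% ± 1.58, each with interferon first. The first untreated ADAR1-null library had a median of 7 reads over these sites and a mean level of 4.43%, against 96 reads and 2.20% in the second. Replicate 1 of the interferon-treated p150 knockout had a median of 12 reads.

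One site, 75114517, carried much of the editing wherever the rest was low. It was the most edited upstream site in all 10 groups. Its level was 37.1% and 36.4% in interferon-treated against 50% and 40.7% in untreated ADAR1-null cells, and 31.9% and 52.2% against 58.0% and 51.6% in p150-knockout cells. It was 94.1% and 96.3% in interferon-treated against 36.4% and 44.6% in untreated ADAR2-null cells. STAT2-null cells had 78.7% and 77.7% with interferon against 77.4% and 81.5% untreated, and wild-type cells 99% and 100% against 93.9% and 90.8%. The site was therefore edited in at least 31.9% of reads in every library, over 70 to 168 reads.

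Its share of the summed upstream level showed how far other sites contributed. That share was 74.4% and 76.0% in ADAR1-null, 78.8% and 76.9% in p150-knockout, 25.4% and 81.6% in ADAR2-null, 69.2% and 68.5% in STAT2-null and 19.6% and 54.0% in wild-type cells, with the interferon-treated group first in each line. Without 75114517, the other 22 upstream sites averaged 0.574% with interferon and 0.649% untreated in ADAR1-null cells and 0.514% and 0.749% in p150-knockout cells. In ADAR2-null cells they averaged 12.7% with interferon and 0.414% untreated, in STAT2-null cells 1.58% and 1.66%, and in wild-type cells 18.5% and 3.58%. At a group mean of 10% or more, 1 of 23 upstream sites counted in every group except interferon-treated ADAR2-null (9), interferon-treated wild-type (11) and untreated wild-type cells (2).

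What interferon did was tested site by site with edgeR's quasi-likelihood test on edited and unedited reads, and a site is called where the p adjusted by Benjamini-Hochberg over all sites of all genes tested was under 0.05. In wild-type cells 9 of the 20 Rpa1 sites tested were called, all 9 higher with interferon, beside 40.4% of the 1223 sites of all genes called higher. The median difference was 8.14 points over the 20 Rpa1 sites and 5.27 points over all sites tested. The share of Rpa1 sites called was thus close to that of all sites.

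The 3 greatest called increases in wild-type cells were at 75114512, 75114509 and 75114487. Site 75114512 had 51.5% and 51.6% with interferon, against 1.02% and 0.917% untreated, a difference of 50.6 points ± 0.0807 (SE; edgeR adjusted p = 0.00101). Site 75114487 had 46.5% and 50% with interferon, against 0 of 207 reads untreated, which allows a level of up to 1.45% (48.2 points ± 1.77, edgeR adjusted p = 0.000714). Both moved in each library by far more than the spread between libraries. An SE here and below comes only from 2 libraries per group, so it can fall below the counting error of the reads, as at 75114512.

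Site 75114509 had 60.6% and 54.1% with interferon, against 4.08% and 11.9% untreated (49.3 points ± 5.10, edgeR adjusted p = 0.00745). At 75114542 the levels were 41.3% and 52.2% with interferon, against 1.03% and 3.69% untreated (44.4 points ± 5.59, edgeR adjusted p = 0.00312). At the near-saturated 75114517 the change was 7.14 points ± 1.61 (edgeR adjusted p = 0.0333). By contrast, neighbouring 75114502 had 37.4% and 36.1% with interferon against 28.6% and 30.3% untreated, and was not called (edgeR adjusted p = 0.721). Leaving out 1 library gave 4 to 7 calls: 4 without the first and 6 without the second untreated library, and 7 and 6 without the first and second interferon library. The call at 75114509 was lost without the first untreated library (edgeR adjusted p = 0.0634), and that at 75114517 without 3 of the 4 libraries (edgeR adjusted p up to 0.194).

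In ADAR2-null cells interferon raised editing along both stretches, the downstream one having reached 50 reads in both groups. Here 27 of 42 Rpa1 sites were called, all higher with interferon, beside 52.2% of the 1145 sites of all genes called higher. Of the 27, 15 were among 20 upstream sites tested and 12 among 22 downstream sites tested. The median difference was 9.35 points over Rpa1 sites and 4.78 points over all sites.

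The greatest increase was at 75114095, which had 92.1% and 88.6% with interferon, against 11.9% and 2% untreated (83.4 points ± 5.24, edgeR adjusted p = 0.000553). Site 75114080 had 93.7% and 90.6% with interferon, against 16.9% and 10% untreated (78.7 points ± 3.80, edgeR adjusted p = 0.000376). Both moved over most of the possible range.

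Site 75114517 was called as well, by 54.7 points ± 4.28 (edgeR adjusted p = 0.00135), and 75114502, with 19.6% and 18.0% against 0% and 3.57%, by 17 points ± 1.96 (edgeR adjusted p = 0.0171). Site 75114595, the most upstream, had 6.00% and 7.19% with interferon, against 0 edited reads untreated, which allows up to 1.09% (6.59 points ± 0.593, edgeR adjusted p = 0.0167). Leaving out the first or second interferon library gave 18 or 14 calls, and leaving out the first or second untreated library 14 or 16, so 3 of the 4 omissions moved the count by more than 1.5 times. The calls at 75114502 and 75114595 were each lost without 3 of the 4 libraries, with edgeR adjusted p up to 0.112 and 0.0891.

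The rises in wild-type and ADAR2-null cells can be set side by side at 19 upstream sites tested in both lines, which share no library. The rise was smaller in ADAR2-null cells at 13 of the 19, a count that was not made over all genes. The test of the difference itself, the ADAR2-null response minus the wild-type response, called 0 of 21 Rpa1 sites by edgeR and 0 by limma, with 1 site at an unadjusted p under 0.05, beside 0.175% of 1146 sites of all genes. The median of this difference was -1.92 points over Rpa1 sites and -1.37 points over all sites. At 75114517 the wild-type level had little room to rise, and its response difference was not called.

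**Figure D3:**
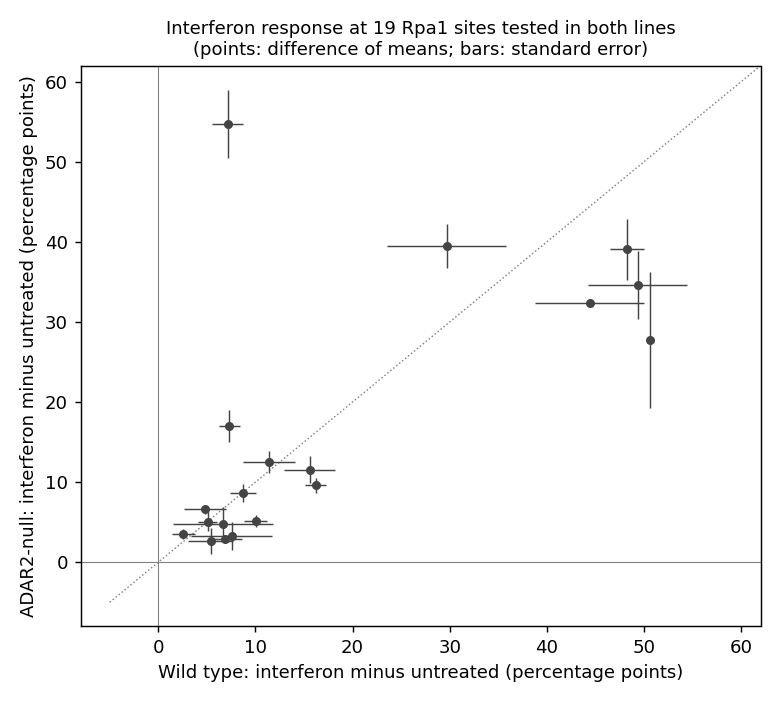
Interferon-treated minus untreated level (percentage points) at the 19 Rpa1 sites tested in both lines, in ADAR2-null cells (vertical axis) against wild-type cells (horizontal axis). Points are differences of means, bars the standard error, and the dotted line marks equal responses; 13 of 19 points lie below it, and the point far above it is 75114517, with 54.7 points in ADAR2-null and 7.14 points in wild-type cells.

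In the other 3 lines no Rpa1 site was called for interferon. In ADAR1-null cells edgeR called 0 of 4 sites, beside 0% of 114 sites of all genes, with 0 Rpa1 sites having an unadjusted p under 0.05, and 0 called by limma. In p150-knockout cells it called 0 of 3, beside 1.65% of 243 sites, again with 0 having an unadjusted p under 0.05, and limma called 0. Few sites were testable in these lines, because the mean level had to reach 1% and the downstream stretch lacked 50 reads in one group of each line. In STAT2-null cells 30 Rpa1 sites were testable and 0 were called, beside 0% of 658 sites, with 1 site having an unadjusted p under 0.05, and 0 called by limma. Median differences over Rpa1 sites and over all sites were -0.581 and -0.997 points in ADAR1-null, -1.20 and 0.674 points in p150-knockout and -0.154 and 0.279 points in STAT2-null cells.

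Responses that were smaller than in wild type were called at a few upstream sites. For ADAR1-null cells 2 of 20 sites were called smaller, beside 12.2% of 754 sites of all genes. These were 75114512, where the difference of responses was -51.2 points ± 0.555 (edgeR adjusted p = 0.0365), and 75114486, at -17.4 points ± 2.64 (edgeR adjusted p = 0.0453). For p150-knockout cells 3 of 20 were called smaller, beside 17% of 839 sites. These were 75114512 (-51.4 points ± 0.0835, edgeR adjusted p = 0.0124), 75114487 (-49.0 points ± 1.93, edgeR adjusted p = 0.0111) and 75114517 (-19.9 points ± 10.8, edgeR adjusted p = 0.0498). All 3 had stayed near their untreated level in p150-knockout cells or lay below it.

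For STAT2-null cells 4 of 20 were called smaller, beside 13.7% of 1026 sites. The 3 greatest were 75114512 (-52.4 points ± 1.33, edgeR adjusted p = 0.0107), 75114487 (-49.7 points ± 1.85, edgeR adjusted p = 0.0077) and 75114542 (-44.8 points ± 5.65, edgeR adjusted p = 0.0424); the fourth, 75114474 (-16.9 points), was named after its value was seen. Leaving out 1 library gave 0 to 2 calls for ADAR1-null, 0 to 3 for p150-knockout and 2 to 4 for STAT2-null cells. For ADAR1-null the count was 0 without either of its interferon libraries, without its second untreated library, without the second interferon library of wild type or without the first untreated library of wild type, and 1 without its first or the second wild-type untreated library. For p150 knockout it was 0 without its first and 1 without its second untreated library, and the call at 75114517 was lost in 7 of 8 omissions. For STAT2-null cells it was 2 without any 1 of its own 4 libraries or without the first untreated library of wild type.

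Untreated ADAR1-null, p150-knockout and ADAR2-null cells were each less edited than untreated wild type at 75114517, 75114502 and 75114509; these comparisons share the wild-type libraries. Against wild type, 6 of 11 sites were called in ADAR1-null cells, all lower, beside 49% of 386 sites of all genes called lower. In p150-knockout cells 4 of 10 were called, all lower, beside 32.5% of 517 sites. ADAR2-null cells had 3 of 11 called, all lower, beside 12.9% of 588 sites. STAT2-null cells had 0 of 14 called by edgeR and 0 by limma, with 1 at an unadjusted p under 0.05, beside 2.95% of 643 sites called in either direction. Median differences over Rpa1 sites and over all sites were -4.19 and -4.04 points for ADAR1-null, -5.41 and -3.25 points for p150-knockout, -5.57 and -2.30 points for ADAR2-null and -1.77 and -0.751 points for STAT2-null cells.

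At 75114517 the untreated difference from wild type was -47.0 points ± 4.91 in ADAR1-null (edgeR adjusted p = 0.0017), -37.5 points ± 3.55 in p150-knockout (edgeR adjusted p = 0.0141) and -51.8 points ± 4.41 in ADAR2-null cells (edgeR adjusted p = 0.0141). At 75114502, the untreated levels were 5.71% and 3.30% in ADAR1-null, 3.82% and 4.84% in p150-knockout, 0% and 3.57% in ADAR2-null and 6.02% and 4.62% in STAT2-null cells, against 28.6% and 30.3% in wild-type cells. No library of the 4 lines reached the wild-type range there. The differences were -24.9 points ± 1.48 (edgeR adjusted p = 0.0132), -25.1 points ± 0.993 (0.0258), -27.6 points ± 1.98 (0.0181) and, not called, -24.1 points ± 1.10 in STAT2-null cells (0.157). Site 75114509 was called in the first 3 lines too, by -7.45, -7.22 and -7.71 points.

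Most of these untreated calls depended on single libraries. For ADAR1-null cells 2 sites were called without either of its own libraries or without the second wild-type library. For p150-knockout cells 0 were called without either of its own libraries, and 1 and 2 without the first and second wild-type library. For ADAR2-null cells 0 were called without its first library or the first wild-type library, and 1 without the second of either. The call at 75114517 for ADAR1-null cells held in each of the 4 omissions, whereas for p150-knockout and ADAR2-null cells it was lost in 3 of 4, with edgeR adjusted p up to 0.0696 and 0.0587. Between the p150 knockout and ADAR1-null cells, untreated, 0 of 3 sites were called by edgeR and 0 by limma, with 0 at an unadjusted p under 0.05, beside 11.8% of 152 sites.

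After interferon, Rpa1 sites were called lower than wild type in every line but ADAR2-null. ADAR1-null cells had 17 of 20 sites called, all lower than wild type, beside 69.5% of 1159 sites of all genes. The p150 knockout had 19 of 20 called, all lower, beside 63.9% of 1039 sites, and STAT2-null cells 13 of 21, all lower, beside 39.8% of 1217 sites. In ADAR2-null cells 0 of 21 were called by edgeR and 0 by limma, with 1 at a raw p under 0.05, beside 2% of 1348 sites. Uncalled differences could still be large. With 1 library left out, ADAR2-null minus wild type was -18.7 to -17.1 points at 75114502 and -26.6 to -18.2 points at 75114509. At 75114534 it was -0.369 to 8.85 points. Median differences over Rpa1 sites and over all sites were -12.7 and -7.06 points for ADAR1-null, -12.8 and -6.14 points for p150-knockout, -5.48 and -1.88 points for ADAR2-null and -10.6 and -5.53 points for STAT2-null cells.

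The 3 greatest decreases of ADAR1-null and of p150-knockout cells were at the same sites. At 75114517 they were -62.7 points ± 0.607 (edgeR adjusted p = 3.79e-05) and -57.4 points ± 10.2 (4.8e-05). At 75114509 they were -55.7 points ± 3.26 (edgeR adjusted p = 0.000218) and -56.7 points ± 3.25 (4.99e-05), and at 75114512 both were -51.6 points ± 0.0621 (edgeR adjusted p = 7.07e-05 and 4.06e-05). STAT2-null cells differed by -52.7 points ± 3.27 at 75114509 (edgeR adjusted p = 0.00282), -48.8 points ± 1.33 at 75114512 (0.0025) and -47.8 points ± 1.82 at 75114487 (0.00114), and by -21.3 points ± 0.707 at 75114517 (0.00314). The STAT2-null count fell to 6 and 8 without its first and second library; for ADAR1-null and p150-knockout cells leaving out 1 library gave 13 to 16 and 14 to 18 calls.

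In the downstream stretch, 4 highly edited sites within 17 bases did not follow 1 pattern across the lines. They are 75114095, 75114086, 75114080 and 75114079; of these, 75114086 was singled out after its values were seen. At a minimum of 20 reads instead of 50, some downstream sites could be tested against wild type, and the tests quoted here use that minimum. Counts at these 4 sites are among the doubled ones, and these tests were not repeated with halved counts. The first interferon-treated wild-type library had a median of 34 reads over the doubled downstream sites. Halving would bring that under 20, so the tests with that group rest on the doubled counts.

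Adjacent 75114080 and 75114079, 1 base apart, had unlike levels in interferon-treated ADAR2-null cells. Site 75114079 had 41.7% and 44.3% in interferon-treated and 1.69% and 4% in untreated ADAR2-null cells, against 85.3% and 92.9% and, untreated, 88.9% and 89.5% in wild-type cells. Untreated, ADAR2-null minus wild type was -86.3 points (edgeR adjusted p = 0.000345). At 75114080, ADAR2-null cells had the 93.7% and 90.6% with interferon given above, and wild-type cells 100% and 100% with interferon and 88.9% and 81.6% untreated. There the untreated ADAR2-null difference from wild type was -71.8 points (edgeR adjusted p = 0.00799).

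In the lines without p150 the order of that pair was the other way round, a contrast between sites that was not tested. Untreated wild-type cells had that order too, by 3.95 points, with equal levels in the first library. Untreated p150-knockout cells had 49.2% and 46.6% at 75114079 and 26.8% and 22.1% at 75114080; against wild type these were -41.3 points (edgeR adjusted p = 0.0353) and -60.8 points (0.00996). ADAR1-null cells had 31.9% and 26.8% with interferon and 71.4% and 37.7% untreated at 75114079, and 23% and 19.7% with interferon and 42.9% and 14.7% untreated at 75114080. The first untreated value at 75114079 is 10 of 14 reads (Wilson 95% interval 45.4% to 88.3%, for counting error only and narrower than it should be where reads are doubled). STAT2-null cells had 48.6% and 45.7% with interferon and 39.5% and 53.7% untreated at 75114079, close to the 53.4% and 54.3% and the 49.0% and 46.3% at 75114080.

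At 75114095 the level was at 0 in all 4 ADAR1-null libraries, with 0 of 240 reads after interferon and 0 of 205 untreated, which allow up to 1.25% and 1.46%. It was 0 in both interferon-treated p150-knockout libraries, which allows up to 2.08%, and 4.47% and 6.13% in the untreated ones. STAT2-null cells had 21.2% and 31.0% with interferon and 19.0% and 11.1% untreated. Wild-type cells had 82.4% and 100% with interferon, against 17.8% and 13.2% untreated, a difference of 75.7 points (edgeR adjusted p = 0.004). Interferon-treated ADAR1-null and p150-knockout cells each differed from interferon-treated wild-type cells by -91.2 points (edgeR adjusted p = 2.48e-05 and 5.62e-05).

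Site 75114086 had a different order of lines. Untreated levels were 0% and 1.05% in ADAR1-null, 15.3% and 23.6% in p150-knockout, 37.3% and 38.0% in ADAR2-null and 50.3% and 72.2% in STAT2-null cells, against 11.1% and 21.1% in wild-type cells. The ADAR2-null and STAT2-null libraries lay above both wild-type ones, but neither difference was called at 20 reads. With interferon the levels were 0% in both ADAR1-null libraries (up to 1.25% allowed), 41.7% and 11.7% in p150-knockout, 89.0% and 81.2% in ADAR2-null, 52.7% and 51.2% in STAT2-null and 50% and 92.7% in wild-type cells. The interferon-treated wild-type and p150-knockout libraries differed widely within their group, at 34 and 55 reads and at 24 and 120 reads. The wild-type rise of 55.3 points was called (edgeR adjusted p = 0.0295).

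**Figure D4:**
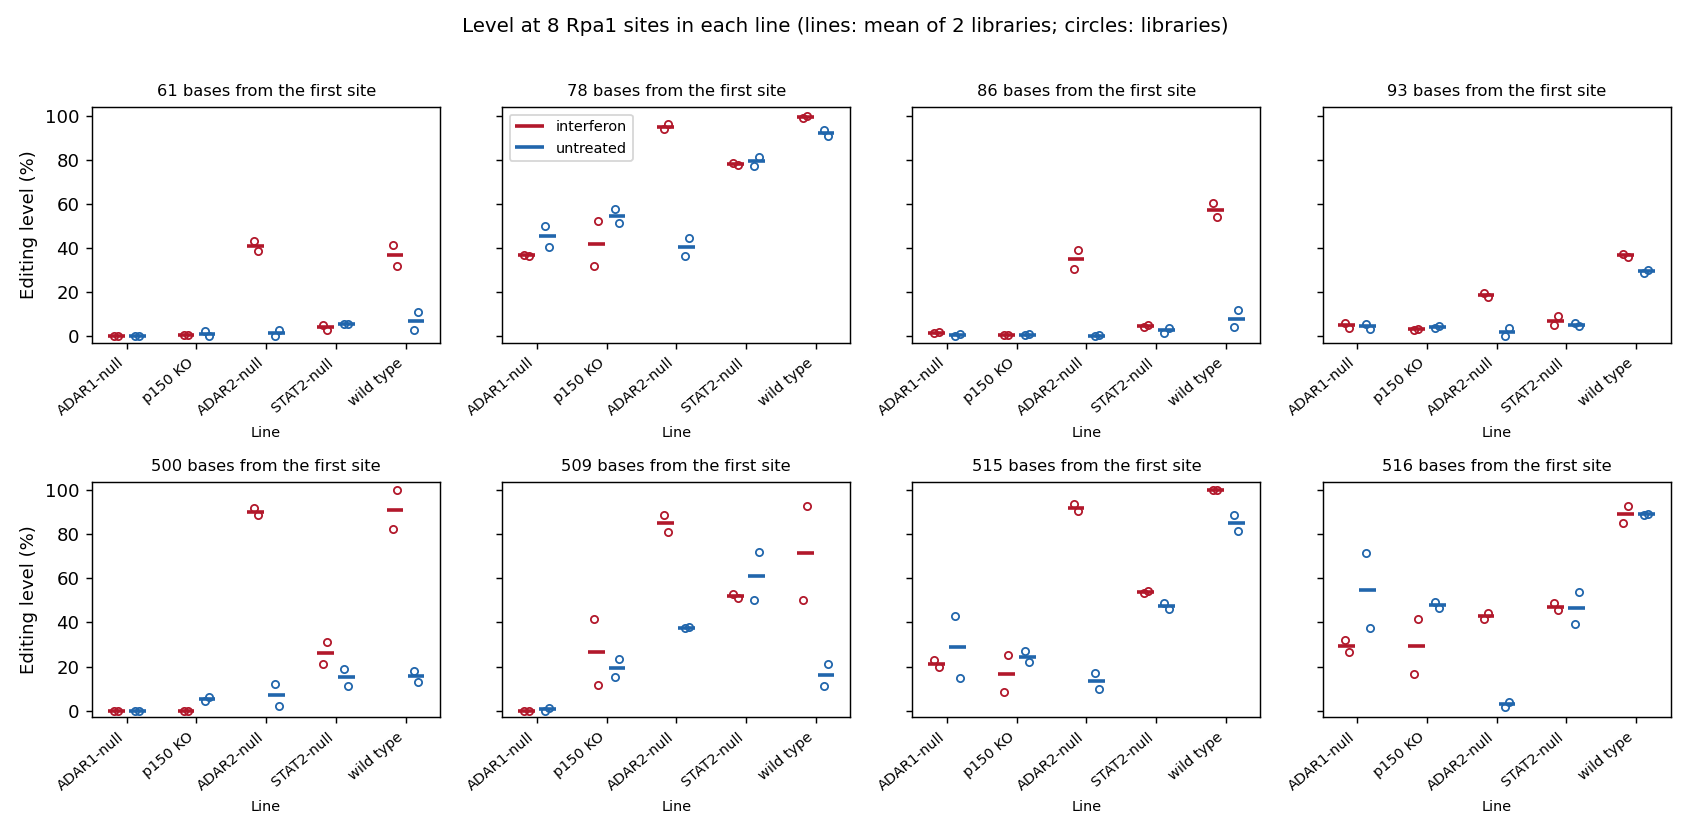
Editing level (percent) in each line at 8 Rpa1 sites, the 4 with the highest mean over the 10 groups in each stretch, with the distance of each from the first covered site (bases) above its panel. Lines are means of 2 libraries and circles the libraries, interferon left of untreated. The panel at 78 bases is 75114517; those at 500, 509, 515 and 516 bases are 75114095, 75114086, 75114080 and 75114079.

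Over the downstream stretch as a whole at 20 reads, 14 of 22 sites rose with interferon in ADAR2-null cells, beside 48.3% of sites of all genes called in either direction at that minimum. In wild-type cells 4 of 12 rose, beside 36.5%, a share near that background. Against wild type after interferon, 9 of 11 were lower in ADAR1-null cells (beside 64.7% of all sites called), 8 of 10 in p150-knockout cells (61.1%) and 6 of 12 in STAT2-null cells (37.1%). In ADAR2-null cells 0 of 14 were called, beside 1.44%. Untreated, 4 of 13 were lower in p150-knockout cells, beside 26.9%, and 4 of 14 in ADAR2-null cells, beside 11.1%. In untreated STAT2-null cells 0 of 18 were called, beside 2.25%. Counts that involve interferon-treated wild type include doubled sites, which halving would bring under 20 reads in 1 library of that group.

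Read depth within the downstream stretch moved with interferon in the 2 lines in which editing rose. The ratio of median reads over its first 12 sites to those over its last 4 was 0.789 and 0.713 in interferon-treated ADAR2-null libraries and 0.478 and 0.474 in interferon-treated wild-type libraries. In the other 16 libraries it was 1 to 1.05. Fewer reads therefore covered the upstream side of that stretch in these 4 libraries, 11 and 18 reads at 75114120 in wild type, for example. The part of this depth difference in the downstream levels was not tested. In the upstream stretch the ratio of median reads over its 19 sites without doubled counts to the reads at 75114595 was 1.02 and 0.964 in interferon-treated ADAR2-null libraries, 0.908 and 0.961 in interferon-treated wild-type libraries and 1 to 1.07 in the other 16 libraries. Its part in the upstream levels was not tested.

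**Figure D5:**
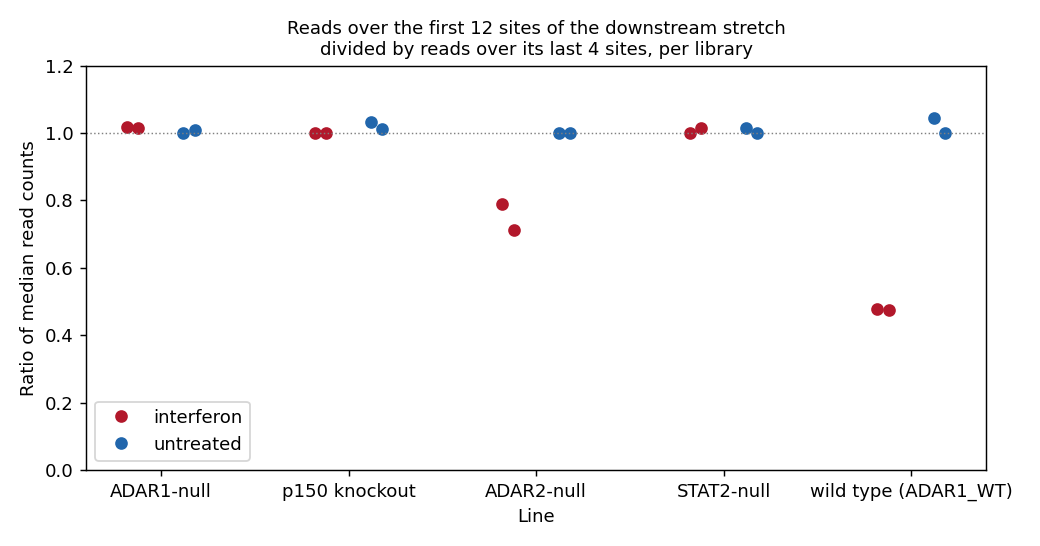
Median reads over the first 12 sites of the downstream stretch divided by median reads over its last 4 sites (ratio, vertical axis), for each library by line and treatment. Interferon-treated wild-type libraries lie at 0.478 and 0.474 and interferon-treated ADAR2-null libraries at 0.789 and 0.713; the other 16 lie between 1 and 1.05.

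Editing varied strongly between neighbouring adenosines. In interferon-treated wild-type cells, 11 of the 23 upstream sites had a mean of 10% or more. Of the 20 pairs of sites 1 base apart in either stretch, 12 differed by more than 10 points in these cells, downstream pairs at under 50 reads included. For example, 75114502 and 75114501, 1 base apart, had 37.4% and 36.1% against 9.09% and 10.7% there. In untreated wild-type cells the same pair had 28.6% and 30.3% against 8.16% and 6.42%. Site 75114501 was among the 4 called lower in untreated p150-knockout cells, by 7.29 points.

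Mad2l1, which encodes a spindle checkpoint protein, has the other long edited 3′ UTR set beside Rpa1, with 62 covered sites. Interferon raised 28 of 37 Mad2l1 sites tested in ADAR2-null and 18 of 39 in wild-type cells, beside 27 of 42 and 9 of 20 for Rpa1 and 52.2% and 40.4% of the sites of all genes. In STAT2-null cells after interferon, 13 of 39 Mad2l1 sites were called lower than wild type and 2 higher, beside 13 of 21 lower for Rpa1 and 39.8% of all sites; the difference between the genes was not tested. Of 38 genes of RPA partners, DNA replication and repair, 17 were listed and 3 had covered sites: Mdc1, a mediator of the DNA damage checkpoint, Mlh3, a mismatch repair protein, and Neil1, a DNA glycosylase. In these, interferon raised 19 of 25 sites in ADAR2-null cells (52.2% over all sites) and 10 of 27 in wild-type cells (40.4%), and no decrease was called in either. Mdc1 held 14 of the 19 and 7 of the 10, and Mlh3 the other 5 and 3. Neil1 had 0 sites tested in ADAR2-null cells and 1, not called, in wild-type cells. After interferon, 19 of 24 were lower than wild type in ADAR1-null cells (69.5% over all sites), 17 of 24 in p150-knockout cells (63.9%) and 10 of 24 in STAT2-null cells (39.8%), with 0 of 30 called in ADAR2-null cells (2% in either direction). Neil1 had 0 sites tested in these comparisons except 1, not called, in ADAR2-null cells.

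Among 145 other genes with at least 5 sites of at least 50 reads in all libraries, the genes whose mean level ran most like that of Rpa1 over the 10 groups were Klhl24 (Pearson r = 0.995, 16 sites), Atl3 (r = 0.991, 9 sites) and Tbc1d24 (r = 0.990, 36 sites). Klhl24 averaged 2.51% with interferon and 0.317% untreated in ADAR2-null cells, and 3.38% and 1.18% in wild-type cells, so its levels were far below those of Rpa1. All the points come from the same 20 libraries, so these correlations are a description only. For Mad2l1 the same correlation was 0.915.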

How the data were processed

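The authors deposited 1 table per library with coverage and edited reads as counts and the level as a fraction to 3 decimals, per the file headers; the fraction equals edited reads over coverage. Reads were aligned to mm9 with BWA and SAMtools, per the submitters' processing notes; the sources used here give no versions or filters. According to the submitters' descriptions, 557 loci (the design text's number) were amplified by reverse-transcription PCR and indexed in 15 cycles. Reads carry no molecular identifiers, so intervals and zero limits (3 edited reads over the group's reads) cover counting error only.

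The coverage rule for the Rpa1 sites and the gene lists were set with earlier results of these data known. A site was tested where every library compared had at least 50 reads and their mean level was at least 1%, in edgeR 4.0.16 (R 4.3.3; modelMatrixMeth, glmQLFit, glmQLFTest; 1 coefficient per group, all 20 libraries), two-sided, with Benjamini-Hochberg adjustment over all sites tested. In simulated data for interferon in wild type (1223 sites), 91 of 100 sites changed by 4 on the log2 odds scale were called. So were 35 of 100 changed by 2 and 1 of 1023 unchanged. The simulated spread between libraries was a fixed setting, not estimated from these libraries, so these counts need not hold for the data. Alternatives were 20 or 100 reads, no level minimum or 5%, the compared groups alone, limma 3.58.1 on log2 odds, a replicate block, and leaving out each library; halving doubled counts was added after seeing the data.

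Sites were named by rule: the 6 highest over the 10 groups, the 3 greatest called increases and decreases in each comparison, the 3 highest in untreated ADAR1-null cells and the ends of the covered region. No label names a batch. Libraries of a group differed by more than the counting of independent reads would give (chi-square per degree of freedom 1.55 to 7.51). Doubled counts raise this value too, and it was not corrected for them. Tables and figures used Python 3.11.15, pandas 2.3.3, scipy 1.17.1 and matplotlib 3.10.9.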

Additional observations from a re-analysis of the deposited data

Results flagged for a closer look

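The interferon response of some Rpa1 sites differed between a mutant line and wild type, by edgeR's test of the difference of responses (Benjamini-Hochberg adjusted p under 0.05). At 75114512 the difference from the wild-type response was -51.2 percentage points in ADAR1-null, -51.4 points in p150-knockout and -52.4 points in STAT2-null cells. Site 75114487 differed by -49.0 points in p150-knockout and -49.7 points in STAT2-null cells. Further differences were -17.4 points at 75114486 in ADAR1-null cells, -19.9 points at 75114517 in p150-knockout cells, and -44.8 points at 75114542 and -16.9 points at 75114474 in STAT2-null cells. The 3 comparisons share the wild-type libraries. Over the 23 upstream sites, ADAR1-null (-0.444 points) and p150-knockout cells (-0.779 points) had a lower mean level in both interferon libraries than in both untreated ones. It was higher in wild-type and ADAR2-null cells. These differences between lines were not tested. Without 75114517 the ADAR1-null libraries overlapped, at 0.723% and 0.425% with interferon against 0.649% and 0.649% untreated. The p150-knockout ones did not, at 0.391% and 0.637% against 0.763% and 0.735%.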

How the results depend on the processing

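No called difference at a named site changed direction when 1 library was left out or doubled counts were halved. The other alternatives compute a site's difference from the same reads, so its direction could not change there. Counts of called Rpa1 sites moved with the filters, and the number of libraries limits them: with 2 libraries a group, the spread is estimated mainly from all groups together, and with the compared groups alone (fewer residual degrees of freedom) the counts were 1 for interferon in wild type, 0 for untreated ADAR1-null, p150-knockout and ADAR2-null cells against wild type, 11 for p150-knockout and 5 for STAT2-null cells after interferon, and 0, 0 and 2 for the responses of ADAR1-null, p150-knockout and STAT2-null cells against wild type. At 100 reads fewer sites were tested, and 1 Rpa1 site was called for interferon in wild type. Untreated ADAR1-null, p150-knockout and ADAR2-null cells had 3, 0 and 0 calls. ADAR1-null, p150-knockout and STAT2-null cells after interferon had 4, 4 and 3, and their responses 0, 0 and 1. Wherever untreated wild type was compared, only Rpa1 sites with doubled counts reached 100 reads. At 20 reads, which admits downstream sites, the counts were 7 and 6 for untreated p150-knockout and ADAR2-null cells and 26 for ADAR1-null cells after interferon. The 26 rest in part on doubled sites that halving would bring under 20 reads in 1 wild-type library. The ADAR1-null response, in which no downstream site was tested, had 0 at 20 reads; the cause was not tested. With no level minimum they were 15 for interferon in ADAR2-null cells, 2, 0 and 0 for untreated ADAR1-null, p150-knockout and ADAR2-null cells, and 0, 1 and 2 for the 3 responses; with a minimum of 5%, they were 2, 2 and 1 for untreated ADAR1-null, p150-knockout and STAT2-null cells, 12 for p150-knockout cells after interferon and 4 for the ADAR1-null response; the cause was not tested. With limma, counts were 5 for untreated ADAR2-null cells and 11, 10 and 8 for the 3 responses; the other 14 of 18 counts stayed within 1.5 times.

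Libraries that share a replicate number showed little shared deviation (correlations of -0.146 to 0.145 over 604 sites), and the main tests did not pair them. The labels do not say whether they were prepared together. With the replicate block 16 of 18 counts stayed within 1.5 times, and the ADAR1-null and STAT2-null responses had 1 and 2 calls. Leaving out each library gave 4 to 7 calls for interferon in wild-type and 14 to 18 in ADAR2-null cells; 2 to 6, 0 to 2 and 0 to 1 for untreated ADAR1-null, p150-knockout and ADAR2-null cells; 13 to 16, 14 to 18 and 6 to 12 for ADAR1-null, p150-knockout and STAT2-null cells after interferon; and 0 to 2, 0 to 3 and 2 to 4 for the 3 responses. Where this left 1 library in a group, that library was assumed to vary like the others.

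The mean over the 23 sites moved beyond 1 SD as edited reads over all reads: with interferon to 1.93% in ADAR1-null, 17.3% in ADAR2-null, 4.58% in STAT2-null and 23.1% in wild-type cells, and untreated to 2.30% in ADAR1-null, 2.82% in p150-knockout and 4.77% in STAT2-null cells. At 100 reads only 3 sites remain, without 75114517. They are the 3 upstream sites with doubled counts and pass this minimum only through the doubling. With interferon they averaged 0.127% in ADAR1-null, 0.522% in p150-knockout, 25.4% in ADAR2-null, 1.88% in STAT2-null and 30.7% in wild-type cells. Untreated averages were 0%, 0.644%, 0.597%, 2.57% and 4.25%, in the same order. Leaving out 1 library gave, with interferon, 1.99% to 2.31% in ADAR1-null, 1.76% to 2.88% in p150-knockout, 15.6% to 16.9% in ADAR2-null, 4.71% to 5.12% in STAT2-null and 21.5% to 22.6% in wild-type cells, and untreated 2.39% to 2.80%, 2.95% to 3.25%, 1.70% to 2.61%, 5.02% to 5.07% and 7.01% to 7.86%.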
